A study of Mus musculus with 2 samples.

Results

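Pharyngeal and foregut endoderm is the epithelium that lines the pharynx and the front of the gut tube, and its cells were examined here among single cells captured from C57BL/6 mouse embryos at E9.5, from the region through which the cardiac neural crest passes. The cells were chosen by 8 transcripts: a cell was taken as an endoderm cell when it had at least 1 unique molecular identifier (UMI, a tag that marks 1 captured RNA molecule) over Epcam and Cdh1, and at least 1 over Foxa1, Foxa2, Nkx2-1, Nkx2-3, Foxe1 and Pax9. There were 440 such cells among 21723, of which 244 of 11958 were in the WT library and 196 of 9765 in the KO library. Embryos of the WT library were Prdm6+/+; Wnt1-Cre2; ZsGreen1. Those of the KO library were Prdm6f/f; Wnt1-Cre2; ZsGreen1. Both genotypes carried the Cre transgene and the ZsGreen1 reporter, and neither was given a treatment. Wnt1-Cre2 makes Cre recombinase in the Wnt1 lineage, which gives rise to the neural crest and to which the endoderm does not belong. The dissected tissue ran from the middle of the otic placode to the back of somite 4, and the labels name its cells cardiac neural crest cells, although cells of many lineages were captured. There was 1 library per genotype, and which embryo a cell came from was not analysed, so no difference between the genotypes could be tested and none has a replicate check.

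The pharyngeal endoderm folds outward into pouches that later form the thymus, the parathyroids and other glands, while its floor gives rise to the thyroid bud, and the ventral foregut behind it gives rise to the lung, the liver and part of the pancreas. Foxa1 and Foxa2 are forkhead factors of endoderm and floor plate. Nkx2-1 and Foxe1 are factors of the thyroid bud and the foregut floor, and Nkx2-3 and Pax9 mark pharyngeal endoderm, Pax9 mainly in the pouches. Endoderm is also a source of signals, such as Shh, for the neural crest and mesoderm beside it.

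Levels are given as UMIs per 1000000 UMIs (CPM) summed over the cells of a class in a library. Intervals are 95% intervals that cover counting error only and leave out the spread between embryos. For levels and ratios of UMIs they also leave out the clustering of UMIs in few cells. The endoderm cells had a median of 2239.5 UMIs in WT and 2750.5 in KO, against 1586 and 1682 in all other cells, and held 568280 and 539441 UMIs in all. The libraries shared 26 cell barcodes, which is 0.217% of the WT and 0.266% of the KO barcodes.

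The label was checked with genes that the rule did not use. Genes with at least 30 UMIs in the endoderm cells of each library were ranked by the smaller of the WT and KO folds over all other cells, with 10 CPM added to both sides for the ranking. Of 3451 genes, 59 were at least 2-fold and 14 at least 4-fold higher in the endoderm cells of both libraries on that scale. Folds printed for single genes are ratios of CPM with nothing added. They describe cells that were selected on their transcripts and are not a test. First in this order was Apela, a secreted peptide ligand of the apelin receptor, at 187 CPM in WT and 169 CPM in KO against 20.8 and 12.9 CPM in other cells. Next came Cldn6, a tight junction claudin, at 252 and 228 CPM against 31.8 and 28.0 CPM. Shh, the hedgehog ligand, was at 260 and 252 CPM against 33.7 and 23.5 CPM. The transcription cofactor Vgll2, the carbonic anhydrase Car4 and Ripply3, a repressor known from the pharyngeal endoderm, were each at least 7.22-fold above other cells in both libraries. Further epithelial genes among the 25 leading genes were the junction genes Cldn4, Cldn7, Cgn and Dsg2, the protease inhibitor Spint2 and Grhl2, a grainyhead factor that directs epithelial genes. The glucose transporter Slc2a3 had the most UMIs of the leading genes, 629 in WT and 663 in KO, and was 5.63-fold and 4.83-fold above other cells. Ttr and Afp, which encode carrier proteins of plasma, also led in both libraries and stood furthest apart between them.

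Some of these genes also mark the cell types that most resemble the endoderm cells. In 255 WT and 200 KO cells gated as floor plate, by Foxa1 or Foxa2 without Epcam and Cdh1 and by Shh or a floor plate marker, Shh was at 610 and 417 CPM, above the endoderm cells, and the 13 endoderm factors outside the rule summed to 1208 and 1011 CPM against 1028 and 838 CPM. Shh was among the genes of that gate and is in the summed list, so both levels are held up by the choice of cells. In 54 and 50 cells gated as surface ectoderm, by Epcam or Cdh1 without a factor and by 2 UMIs of its markers, Cldn6 was at 277 and 316 CPM and 25 epithelial genes were at 2580 and 1988 CPM against 1948 and 1526 CPM. The endoderm cells differed from each on the other side: Cldn6 was at 49.8 and 20.4 CPM in floor plate cells, and Shh had no UMI in surface ectoderm cells.

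**Figure D1:**
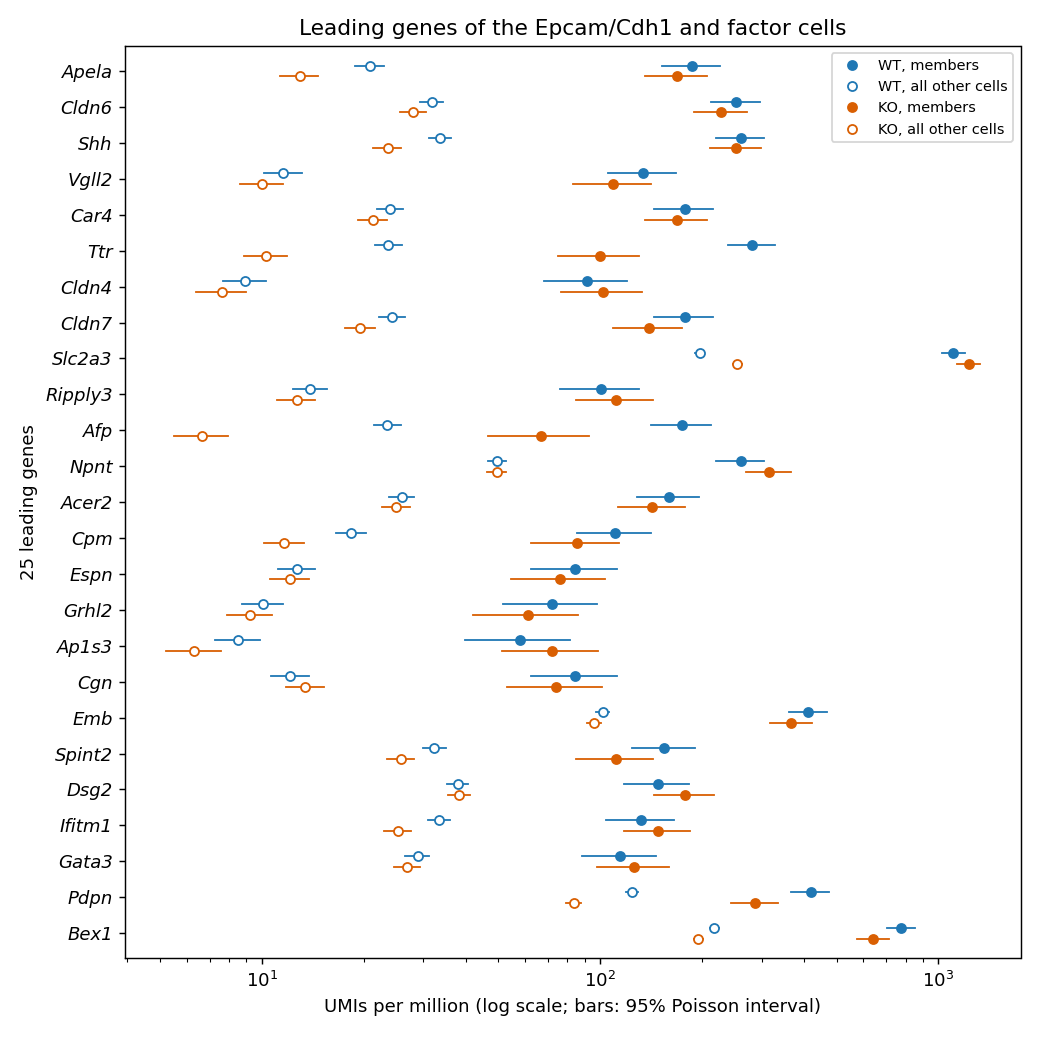
Levels of the 25 leading genes in CPM on a log axis, in the endoderm cells (members, filled) and in all other cells (open) of the WT and KO libraries. Bars are 95% Poisson intervals. In each gene both filled points lie to the right of both open points, and WT and KO differ most for Ttr and Afp.

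Free RNA in droplets gives UMIs in cells that do not express a gene, so the same shares were read in cells of which globins were at least 5% of the UMIs. Shh had a UMI in 28.7% of the endoderm cells and 2.13% of these erythroid cells in WT, with median depths of 2239.5 and 2020 UMIs. Apela had a UMI in 23.8% of endoderm and 0.888% of erythroid cells of that library, and Cldn6 in 36.5% and 2.13%. Slc2a3 was found in 65.6% of endoderm cells and in 14.0% of erythroid cells. None of the 563 erythroid cells in WT and none of the 220 in KO passed the rule, which allows shares of up to 0.533% and 1.36%. Cells with at least 3 UMIs over 9 endothelial genes passed it in 2 of 614 cases in WT and 1 of 468 in KO.

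Of the marker lists of other cell types, those of mesenchyme, cardiac muscle, neural tube, endothelium, neural crest and erythroid cells were lower in the endoderm cells than outside them. The 12 mesenchyme markers summed to 452 CPM in WT and 497 CPM in KO endoderm cells, against 1265 and 1077 CPM in other cells. The 9 cardiac muscle markers were at 1156 and 968 CPM against 3995 and 3268 CPM, and the 10 neural tube markers at 327 and 326 CPM against 605 and 586 CPM. Endothelial markers were at 73.9 and 64.9 CPM against 322 and 297 CPM, and the 7 neural crest markers at 158 and 191 CPM against 276 and 281 CPM. Surface ectoderm, the other epithelium that carries Epcam and Cdh1, had 10 markers that summed to 25 and 38 UMIs, or 44.0 CPM in WT and 70.4 CPM in KO against 47.8 and 46.1 CPM in other cells. Of these Krt5, Krt15 and Grhl3 were at 0, and the log2 ratio of KO over WT of the sum was 0.68 (−0.09 to 1.47). The part of surface ectoderm cells in the results below was not tested. The 8 floor plate markers, genes of ventral neural cells that also carry Foxa2, were at 232 and 239 CPM against 198 and 202 CPM. Of the floor plate genes, Ferd3l had 0 and 1 UMI, whereas Sulf1 had 50 and 65. The placode markers, at 195 and 230 CPM against 202 and 207 CPM, and those of second heart field and splanchnic mesoderm, at 223 and 182 CPM against 220 and 178 CPM, were level with other cells. The 5 notochord markers in the tables, of a tissue that also carries Foxa2 and Shh, were at 75.7 CPM in WT and 16.7 CPM in KO against 44.9 and 29.9 CPM in other cells. The log2 ratio of KO over WT of their sum was −2.18 (−3.40 to −1.12), from 43 and 9 UMIs. Of the WT UMIs 14 were in 1 cell, and only 2 WT cells held 3 or more, so few cells set this ratio. No KO cell held more than 1. Macrophage and megakaryocyte markers had 2 and 4 UMIs. Over the cardiac, endothelial, neural crest, mesenchyme and neural tube lists together, 77.9% of the WT and 91.8% of the KO endoderm cells had at least 3 UMIs, as did 89.2% and 91.2% of other cells. The part of free RNA and of doublets in these UMIs was not tested.

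Promoter sequences are shown for 3 genes, the first in the leading order and a pair of the carrier genes that stood apart between the libraries, since each holds a forkhead motif in the window before its start. The sequences are from RefSeq on GRCm38.p6, the 250 bases before the annotated start on the strand of the gene, 5′ to 3′. Capitals mark TGTTTAC or TGTTTGC on either strand, the motifs that were searched. Apela is at chr8:65037337-65037586 on the minus strand, Afp at chr5:90490464-90490713 on the plus strand and the upstream start of Rbp4 at chr19:38125322-38125571 on the minus strand. Rbp4 has another annotated start, with no match in its window.
Apela: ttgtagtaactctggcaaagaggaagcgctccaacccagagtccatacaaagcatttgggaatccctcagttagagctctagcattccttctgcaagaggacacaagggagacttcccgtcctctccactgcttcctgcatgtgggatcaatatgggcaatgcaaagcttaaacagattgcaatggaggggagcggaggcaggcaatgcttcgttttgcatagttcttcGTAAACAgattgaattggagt
Afp: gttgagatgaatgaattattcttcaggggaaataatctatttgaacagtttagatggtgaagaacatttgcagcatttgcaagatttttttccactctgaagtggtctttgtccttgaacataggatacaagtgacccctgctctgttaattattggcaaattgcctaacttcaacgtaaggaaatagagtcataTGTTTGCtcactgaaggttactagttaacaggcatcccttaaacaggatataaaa
Rbp4: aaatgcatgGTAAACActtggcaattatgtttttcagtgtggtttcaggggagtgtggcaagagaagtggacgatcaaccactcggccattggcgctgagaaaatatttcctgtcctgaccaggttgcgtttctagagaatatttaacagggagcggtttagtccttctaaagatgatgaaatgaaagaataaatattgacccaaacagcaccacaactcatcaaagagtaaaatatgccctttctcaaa
Either motif was found in 7.29% of the 32851 promoters in the RefSeq table, and in a promoter of 8.22% of its 27025 genes. Among the leading genes it was found in 4 of 23 promoters and so in 4 of the 19 genes with one. The genes were picked for display because they held one, and a match is a description of letters, not of a bound site.

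The share of cells that passed the rule was alike in the libraries: 2.04% (1.79 to 2.31) in WT and 2.01% (1.74 to 2.31) in KO, with a log2 ratio of KO over WT of −0.02 (−0.30 to 0.25). This equality depended on depth. When cells were divided into 4 equal classes by their UMIs, the share in the shallowest class was 0.347% in WT and 0.152% in KO, and in the next it was 1.36% and 0.418%. In the third class it was 2.33% and 1.90%, and in the deepest 4.78% and 4.76%. Only in the second class did the interval of the log2 ratio exclude 0, at −1.70 (−2.82 to −0.71). When each cell was thinned to 1000 UMIs, with 1361 shallower WT cells and 125 such KO cells set aside, 88 cells (0.830%) passed in WT and 62 (0.643%) in KO. Requiring at least 2 UMIs on each side gave the opposite order, 40 cells (0.335%) in WT and 59 (0.604%) in KO, a log2 ratio of 0.85 (0.25 to 1.47). Without the cells that had at least 3 UMIs of other lineages, 54 cells remained in WT and 16 in KO, at −1.46.

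**Figure D2:**
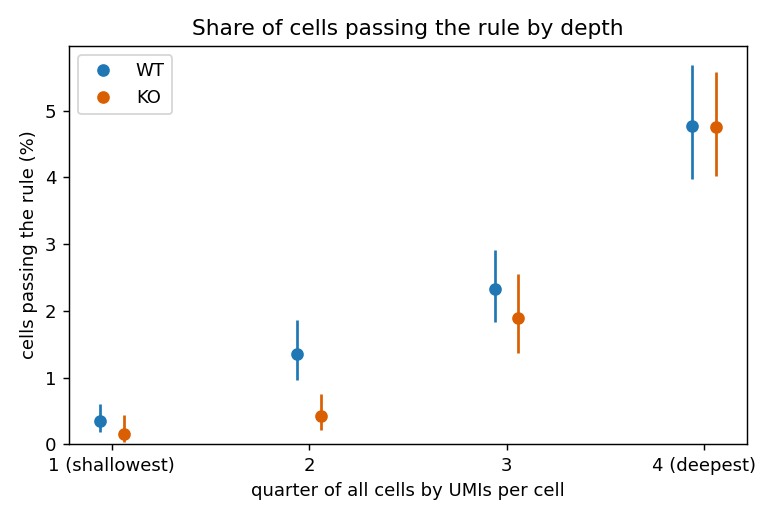
Share of cells that passed the rule, in percent, in 4 equal classes of all cells by UMIs per cell, for WT and KO. Bars are exact 95% binomial intervals. The share climbs with depth in both libraries, from 0.347% to 4.78% in WT and from 0.152% to 4.76% in KO, and the libraries lie furthest apart in the second class.

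Many cells lay at the edge of the rule. Of the endoderm cells, 94 in WT and 57 in KO had exactly 1 UMI on each side. Another 865 and 878 cells had Epcam or Cdh1 with none of the 6 factors, and 667 and 528 had a factor with neither Epcam nor Cdh1. Over 25 epithelial genes outside the rule, the cells with 1 UMI on each side were at 1586 CPM in WT and 1001 CPM in KO, and those with at least 2 on each side at 2414 and 1853 CPM. Cells just outside with Epcam or Cdh1 alone were at 1305 and 1009 CPM, and cells with neither side at 381 and 287 CPM. In KO, the cells just inside the rule were thus level with those just outside on this list. The cells with 1 UMI on each side held more mesenchyme, neural tube, surface ectoderm and cardiac muscle markers than those with at least 2. Mesenchyme markers were at 546 CPM in WT and 851 CPM in KO, against 322 and 384 CPM with at least 2 on each side and 751 and 730 CPM with Epcam or Cdh1 alone. Floor plate markers went the other way in WT, at 227 against 277 CPM, and were at 294 against 249 CPM in KO. The part of the cells with 1 UMI on each side in the results was not tested. Over 13 endoderm factors outside the rule, among them Gata6 and Shh, cells just inside were at 901 and 798 CPM and those with at least 2 UMIs on each side at 1243 and 1045 CPM. The remaining endoderm cells were at 1030 and 701 CPM, below the cells just inside in KO. Cells with a factor alone were at 785 and 661 CPM, those with Epcam or Cdh1 alone at 461 and 375 CPM, and those with neither side at 477 and 405 CPM.

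The rule genes are described only, since they chose the cells. Epcam was found in 217 WT and 177 KO endoderm cells and Cdh1 in 61 and 69. Foxa1 was found in 109 cells (44.7%) in WT and 63 (32.1%) in KO, and Foxa2 in 93 (38.1%) and 91 (46.4%). Pax9 was found in 42 and 43 cells, Foxe1 in 39 and 36, Nkx2-3 in 21 and 25, and Nkx2-1 in 16 and 14. Most cells, 181 in WT and 131 in KO, had a UMI of 1 factor only. Foxa1 and Foxa2 met in 29 and 27 cells. Foxa2 and Pax9 met in 1 and 4 cells, and Nkx2-1 and Pax9 in none of either library. A rule that needs 1 factor or more lowers such overlaps by its construction, and nothing is read from them.

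The endoderm cells were also divided by the factor they held. The genes named for each factor are among the 10 with the largest fold in cells with it over the other endoderm cells, by the smaller of the WT and KO folds, so they were picked for the pattern shown and are a description, in groups of as few as 14 cells. Cells with Pax9 carried pouch genes. Tbx1, the T-box factor of the pharyngeal apparatus, had a UMI in 13 of 42 Pax9 cells and 9 of 202 others in WT, and in 15 of 43 and 11 of 153 in KO. Pax1, its pouch paralogue, was found in 6 of 42 against 8 of 202 and in 12 of 43 against 8 of 153. Spry2, a feedback inhibitor of FGF signalling, was at 1927 CPM in Pax9 cells and 914 CPM in the others in WT, and at 1457 and 716 CPM in KO. Over the whole pouch list of 15 genes, of which 13 are in the tables, Pax9 cells reached 829 CPM in WT and 887 CPM in KO, the highest of the 6 factor groups in either library. These levels compare groups within a library and the cells of a group are not replicates.

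Cells with Foxe1 carried a different set. Igfbp5, an insulin-like growth factor binding protein, was found in 38 of 39 WT and 36 of 36 KO Foxe1 cells, at 3450 and 4356 CPM against 1226 and 1129 CPM in other endoderm cells. Edn1, the endothelin ligand that patterns arch neural crest, was found in 7 of 39 against 6 of 205 cells in WT and 10 of 36 against 6 of 160 in KO. Bmp4, a BMP ligand, was at 147 CPM against 22.9 CPM in WT and 123 CPM against 36.2 CPM in KO. The Wnt and FGF receptor trafficking gene Shisa2, the matrix gene Sparc and the sulfatase Sulf1 were also among the leading genes of this group. Hedgehog response genes were highest in Foxe1 cells, at 1703 CPM in WT and 2003 CPM in KO, although Shh itself was found in only 7 and 5 of them.

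Cells with Nkx2-1, Foxa2 or Foxa1 carried more Shh and Apela than the other endoderm cells. In Nkx2-1 cells Shh was found in 9 of 16 in WT and 8 of 14 in KO, at 720 and 1097 CPM against 232 and 191 CPM in other endoderm cells, and Apela in 8 of 16 and 8 of 14, at 690 and 658 CPM against 155 and 133 CPM. Slc2a3 was at 2428 and 2771 CPM there against 1024 and 1117 CPM. In Foxa2 cells Shh was at 398 and 412 CPM against 174 and 114 CPM, and Car4 at 265 and 240 CPM against 123 and 107 CPM. Rbp4 was at 499 and 68.0 CPM there against 235 and 3.46 CPM. Spon1, of the floor plate marker list, was at 86.9 and 84.0 CPM against 28.6 and 20.7 CPM. It was found in 11 of 93 WT and 7 of 91 KO cells with Foxa2. The part of floor plate cells in this group was not tested. Foxa1 cells had Shh at 338 CPM against 196 CPM in WT and 381 CPM against 184 CPM in KO, and Apela at 245 CPM against 138 CPM and 296 CPM against 102 CPM. They also carried more Gata6, a GATA factor of endoderm and heart, at 284 CPM against 145 CPM in WT and 215 CPM against 122 CPM in KO. Nkx2-3 cells, 21 and 25 in number, had among their leading genes the semaphorin Sema6a, at 441 and 343 CPM against 141 and 149 CPM, and Wnt5a, a non-canonical Wnt ligand, at 140 and 186 CPM against 38.6 and 72.4 CPM.

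**Figure D3:**
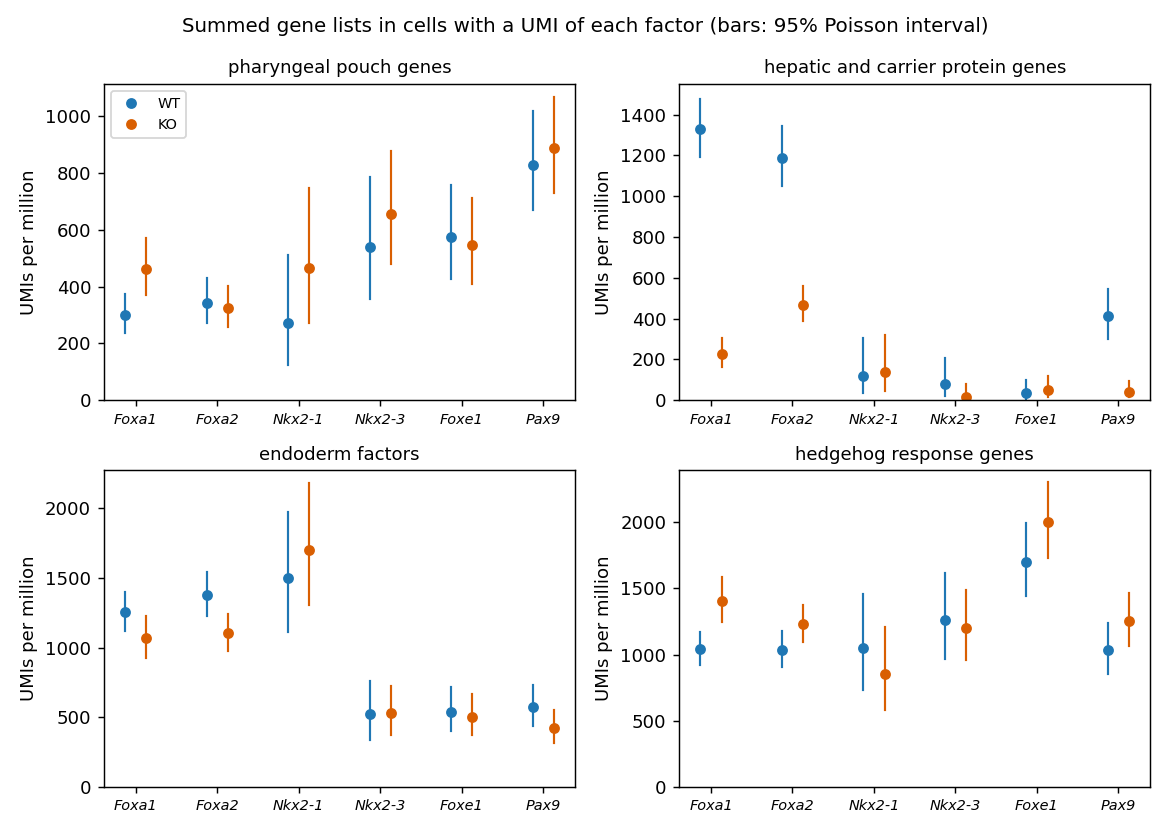
Summed CPM of 4 gene lists in endoderm cells with a UMI of each of the 6 factors, in WT and KO, with 95% Poisson intervals. A cell with several factors counts in each. Pouch genes peak in Pax9 cells and hedgehog response genes in Foxe1 cells of both libraries, and the carrier protein list is highest in Foxa1 and Foxa2 cells of WT.

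Expression was then compared between KO and WT within the endoderm cells, to ask how an epithelium outside the Wnt1 lineage compared when Prdm6 was deleted in the crest beside it. Of 4400 genes with at least 50 UMIs over both libraries, 162 (3.68%) were at least 1.5-fold higher in KO and 281 (6.39%) at least 1.5-fold lower. The interval excluded 0 for 115 of the higher genes (2.61%) and 177 of the lower (4.02%). The difference from KO over WT in all other cells was also at least 1.5-fold, in the same direction, for 82 higher genes (1.86%) and 140 lower genes (3.18%). The median log2 ratio over all genes tested was −0.02, and 90% of genes lay between −0.64 and 0.54. The order of the counts was not stable: 94 genes were higher and 68 lower with at least 2 UMIs on each side of the rule, 41 and 29 after thinning, and 23 and 13 with a minimum of 200 UMIs. Fewer genes reached the UMI minimum in these settings, so the counts compare within a setting and not with 162 and 281. The shares above are the background for the counts below. With sums over cells of a gate, fewer cells with a transcript and less of it per cell cannot be told apart unless the cells are counted.

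Of the gene lists with a median, leaving the marker lists of other cell types aside, the hepatic and carrier protein genes stood furthest from 0. Of this list of 13 genes, 12 are in the tables and 4 had 50 UMIs, of which 3 were at least 1.5-fold lower in KO against the background of 6.39%. Their median log2 ratio was −1.44 against −0.02 over all genes. Rbp4, the plasma carrier of retinol at chr19:38116629-38125281 on the minus strand, had 191 UMIs in 37 WT cells and 18 in 6 KO cells, a log2 ratio of −3.33 (−4.12 to −2.63). In WT 106 of its UMIs were in 5 cells and 35 in 1 cell, and in KO 17 were in 5 cells. The counting interval takes no account of this clustering. Ttr, which carries thyroid hormone and Rbp4, had 160 UMIs in 48 cells and 54 in 20, at −1.49 (−1.96 to −1.04). Afp, the fetal albumin-like protein, had 99 UMIs in 26 cells and 36 in 8, at −1.38 (−1.98 to −0.82). Apoe, an apolipoprotein of many tissues, had 32 and 25 UMIs and its interval spanned 0. The genes under 50 UMIs pointed the same way in number: Apoa1 had 16 and 4, Trf 11 and 3, Apom 10 and 2, Alb 7 and 0, and Apob 7 and 1. The same genes were lower in KO outside the endoderm cells too, with a log2 ratio of −2.66 for Rbp4, −1.20 for Ttr and −1.83 for Afp. The interval of the difference from the rest of the library spanned 0 for each of these 3 genes. The sum over the list was at −1.82 (−2.09 to −1.55) in endoderm cells and at −0.96 (−1.06 to −0.86) outside. These sums weigh the genes differently: Apoe held 32 of the 549 WT UMIs inside and 714 of 2401 outside. The gap between the sums is therefore not read as a stronger difference in endoderm cells.

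The carrier proteins came from few cells. A cut of at least 3 UMIs over Afp, Ttr and Apoa1, chosen after the values were seen, took 35 WT endoderm cells (14.3%, 10.2 to 19.4) and 12 KO cells (6.12%, 3.20 to 10.5). At 0 UMIs were 187 and 173 cells, and the richest cell held 32 UMIs in WT and 16 in KO. In these cells Afp was at 1066 CPM in WT and 969 CPM in KO, and Ttr at 1451 and 1245 CPM. These levels are held up by the cut, which used both genes, and nothing is read from them about the level per cell. Rbp4, which was not used in the cut, was at 1824 CPM in WT and 470 CPM in KO, and was found in 27 of the 35 and 5 of the 12 cells. Hhex, a homeobox factor of early liver and thyroid, was found in 14 of the 35 WT cells and 4 of the 12 KO cells, and Gata6 in 24 and 9. Foxa3 had a UMI in 5 and 1 of them and Hnf4a in 4 and 0, and neither had one in any other endoderm cell. Foxe1 and Pax1 were found in none of these cells in either library, and Pax9 in 4 and 0. Outside the rule there were 88 such cells in WT and 28 in KO, with Afp at 1321 and 957 CPM and Rbp4 at 1196 and 290 CPM. Of these outside cells, 57 in WT and 12 in KO had Rbp4. Inside and outside the rule, fewer KO than WT cells reached the cut, and the summed level of Rbp4 was lower in the KO cells that did. Fewer cells with Rbp4 and less of it per cell were not separated.

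**Figure D4:**
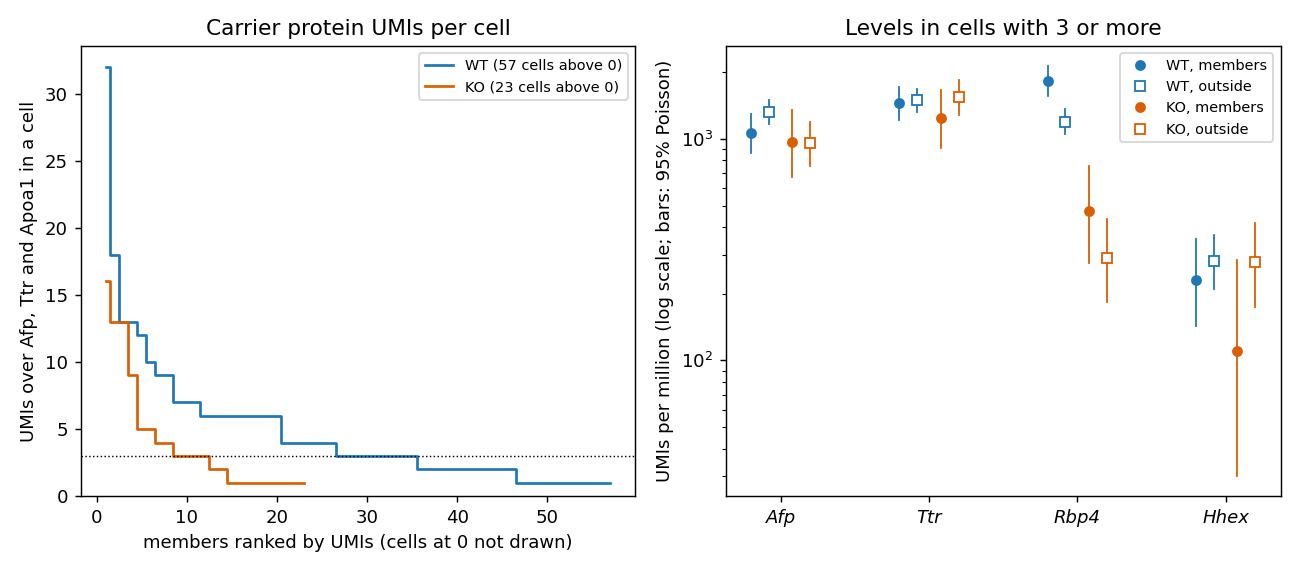
Left, UMIs over Afp, Ttr and Apoa1 in each endoderm cell above 0, ranked, with the cut of 3 dotted. Right, levels of 4 genes in CPM on a log axis in the cells with 3 or more, inside (members) and outside the rule, with 95% Poisson intervals. The WT curve lies above the KO curve over most ranks, and Rbp4 is lower in KO in both sets of cells. Afp and Ttr chose the cells, so their levels are shown as a description.

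Other genes named as lower in KO included Nepn, which encodes a small leucine-rich proteoglycan known as nephrocan and found in early foregut endoderm. It had 45 UMIs in 19 WT cells and 5 in 3 KO cells, a log2 ratio of −3.09 (−4.79 to −1.77), and was at −3.13 in the rest of the library. Dlk1, an imprinted Notch-related ligand, had 183 and 81 UMIs, at −1.10 (−1.50 to −0.72), and −0.74 in the rest. The globins Hba-x (717 and 267 UMIs), Hbb-bh1 (273 and 96), Hbb-y (811 and 382) and Hba-a2 (71 and 26) were lower as well. Globins made up 0.351% of the UMIs of endoderm cells in WT and 0.154% in KO, against 1.43% and 0.744% in other cells. The part of free RNA from erythroid cells in these globin values was not tested. Hba-a2 has a near-identical copy, Hba-a1, between which the counting may have split reads.

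Among 13 endoderm factors, 6 had 50 UMIs and 3 of these were at least 1.5-fold lower in KO, with 0 higher and a median of −0.63. The sum over all 13 was at −0.29 (−0.47 to −0.11), and at −0.25 in other cells. Onecut2, a cut-domain factor of liver and foregut, had 52 UMIs in 41 WT cells and 17 in 14 KO cells, a log2 ratio of −1.54 (−2.42 to −0.72), while the rest of the library was at 0.13. The difference between them was −1.67 (−2.47 to −0.87), the lowest bound of any gene tested. In WT, 18 of the 41 cells with Onecut2 were cells with carrier UMIs, and in KO 5 of 14. Of all endoderm cells, 14.3% in WT and 6.12% in KO were such cells. Gata4, a GATA factor of heart and gut, had 38 and 18 UMIs, with an interval of the log2 ratio from −1.90 to −0.16 and −0.70 in the rest. Prox1, a homeobox factor of liver, had 41 and 22 UMIs, at −0.82 (−1.64 to −0.04), with −0.04 in the rest. Shh (148 and 136 UMIs) and Sox2, a factor of the dorsal foregut (146 and 145), were at −0.05 (−0.39 to 0.30) and 0.07 (−0.28 to 0.41). Hhex, which had under 50 UMIs, was found in 21 WT and 8 KO cells. Without the cells with carrier UMIs, an alternative added after the values were seen, the median of the factors was −0.11, and with at least 2 UMIs on each side of the rule it was −0.059.

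Of 25 epithelial genes, 11 had 50 UMIs, of which 3 were lower and 0 higher in KO, with a median of −0.35, or −0.67 without the deepest 5% of cells. Krt18, a keratin of simple epithelia, had 182 and 105 UMIs, at −0.72 (−1.08 to −0.36), and its partner Krt8 158 and 112, at −0.42 (−0.78 to −0.06). Dsp, which anchors keratin to desmosomes, had 78 and 39 UMIs and F11r, a tight junction adhesion protein, 49 and 28. Cldn6, with 143 and 123 UMIs, Cldn4, with 52 and 55, and Grhl2, with 41 and 33, had intervals that spanned 0. The summed list stood at −0.35 (−0.48 to −0.22) in the endoderm cells and at the same −0.35 in all other cells. Of 15 basement membrane genes, 12 had 50 UMIs and 1 was lower, with a median of −0.05. The lower gene was Lama5, a laminin chain with 32 and 19 UMIs, and its interval spanned 0. Col4a1, a chain of the basement membrane collagen, had 511 and 396 UMIs, at −0.29 (−0.49 to −0.10), and Npnt, an integrin ligand of epithelia, 148 and 170.

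Of the pouch genes 4 had 50 UMIs, none past 1.5-fold, with a median of 0.40. Ripply3 had 57 and 60 UMIs, Hoxa3 34 and 44, Eya1 27 and 34, and Tbx1 25 and 31, and the interval of each spanned 0. The summed list was at 435 CPM in WT and 534 CPM in KO, a log2 ratio of 0.30 (0.05 to 0.55), against 0.03 in other cells. Pax1 had 19 UMIs in 14 cells and 28 in 20. Foxn1, the later thymus factor, had no UMI in these cells of either library. Of the thyroid bud list, none of 5 genes had 50 UMIs: Hhex had 28 and 11, Pax8 5 and 7, and Tg, the thyroid hormone precursor, 0. Of 13 lung and oesophagus genes, 10 had 50 UMIs and 0 lay past 1.5-fold, with a median of 0.02. Id2, an inhibitor of helix-loop-helix factors, was the most abundant of these with 598 and 461 UMIs, at −0.30 (−0.48 to −0.12).

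Of 25 ligands, 9 had 50 UMIs, of which 1 was higher and 0 lower in KO, with a median of 0.10. Wnt5a had 27 UMIs in 24 WT cells and 47 in 37 KO cells, at 0.87 (0.16 to 1.61), with 0.25 in the rest of the library. Pdgfa, a platelet-derived growth factor, had 92 and 127 UMIs, at 0.54 (0.14 to 0.94), and stayed under 1.5-fold. Bmp2, under the minimum of 50, had 13 UMIs in 7 WT cells and 3 in 3 KO cells. Of 10 hedgehog response genes, 4 had 50 UMIs and 0 lay past 1.5-fold, with a median of 0.19. Ptch1, the hedgehog receptor and target, had 402 UMIs in 162 cells and 476 in 153, at 0.32 (0.12 to 0.51), whereas all other cells were at 429 CPM in both libraries. The summed list was at 0.23 (0.08 to 0.39) in endoderm cells and −0.08 outside.

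Hox genes were sparse in these cells, and 3 of the 20 in the tables had 50 UMIs, with 0 past 1.5-fold and a median of −0.25. Hoxa3 and Hoxb2, of the front of the clusters, had 34 and 44, and 45 and 32 UMIs. Hoxb8, of more posterior tissue, had 22 UMIs in 12 WT cells and 4 in 3 KO cells, and was also lower in other cells at −0.98. The notochord markers T and Car3 had 9 and 18 UMIs in WT, each from 2 cells, and 2 and 1 in KO. Retinoic acid genes had 6 of 14 at 50 UMIs and 0 past 1.5-fold, with a median of −0.07. Crabp1, which binds retinoic acid in the cell, had 375 and 451 UMIs, at 660 and 836 CPM against 1533 and 1681 CPM in other cells.

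The cell cycle lists were close to the background. Of 37 S phase genes, 33 had 50 UMIs, 1 was higher and 1 lower, with a median of 0.13, and Rad51ap1, a DNA repair factor, had 28 and 53 UMIs but 9 and 4 after thinning, while Cdc7, a kinase that starts replication, had 36 and 20 with an interval that spanned 0. Of 52 G2 and mitosis genes, 46 had 50 UMIs, 0 were higher and 2 lower, with a median of −0.01, and the mitotic kinase Aurkb had 62 and 37, while Cdca2, a mitotic chromatin protein, had 45 and 26 with an interval that spanned 0. Of 20 glycolysis and hypoxia genes, 15 had 50 UMIs, 0 were higher and 2 lower, with a median of −0.29. Eno1, a glycolytic enzyme, had 1215 and 761 UMIs, at −0.60 (−0.73 to −0.47), and stood at −0.55 in the rest of the library. Pfkl, a phosphofructokinase, had 118 and 72 UMIs, at −0.64 (−1.08 to −0.20) against −0.09. Of 19 immediate early and stress genes in the tables, 8 had 50 UMIs and 0 lay past 1.5-fold, with a median of 0.09, and Fos and Egr1 had no UMI.

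Among the genes higher in KO, Pyy stood first by its bound. Pyy encodes peptide YY, a gut hormone, and lies at chr11:102106676-102107832 on the minus strand. It had 26 UMIs in 13 WT cells and 117 in 19 KO cells, a log2 ratio of 2.25 (1.62 to 2.92), while the rest of the library was at 1.05. Of the 117 UMIs, 76 were in 5 cells and 22 in 1 cell, so few cells set the level. In KO, 10 of the 19 cells had Foxa2 and 6 had Pax9, and 3 were cells with carrier UMIs. Wfdc2, a secreted protease inhibitor of epithelia, had 16 UMIs in 16 WT cells and 68 in 53 KO cells, at 2.16 (1.36 to 3.05), with 1.37 in the rest, and no cell held more than 3. In KO, 25 of these 53 cells had Foxa2 and 17 had Pax9. Of all 196 KO endoderm cells, 91 (46.4%) had Foxa2, 43 (21.9%) had Pax9 and 12 (6.12%) were cells with carrier UMIs. Both factors are rule genes, and nothing is read from their overlaps with Pyy or Wfdc2.

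Hotairm1, an RNA transcribed from the HoxA cluster, had 135 UMIs in 85 WT cells and 292 in 96 KO cells, at 1.19 (0.89 to 1.49) against 0.39 in the rest of the library. It is annotated as antisense, and whether the counting used strand is not given in the sources used here. In KO, 53 of the 96 cells had Foxa2 and 42 had Foxa1, against 35 and 47 of the 85 in WT. Over all endoderm cells Foxa2 was found in 46.4% in KO and 38.1% in WT, and Foxa1 in 32.1% and 44.7%. The shift between the libraries is therefore not read as a trait of the Hotairm1 cells. Hes1, a target of Notch signalling, had 89 UMIs in 71 cells and 155 in 91, at 0.88 (0.49 to 1.27) against 0.41. Rad50, of DNA break repair, had 28 and 59 UMIs and Ap3b1, of vesicle sorting, 15 and 38.

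The remaining genes of the ranking were higher throughout the KO library. The replication histones Hist1h2ae (22 and 74 UMIs) and Hist1h1b (20 and 60) were at 1.83 and 1.66 in endoderm cells and at 1.71 and 1.82 outside, and belong to a family of like copies. Ncl, nucleolin, had 1062 and 1816 UMIs, at 0.85 (0.74 to 0.96) against 0.66. Gm42418, a locus that shares sequence with ribosomal RNA and is therefore uncertain, was at 0.82 against 1.21. The respiratory chain subunit Cox7c was at 0.81 against 0.52, and Atox1, a copper chaperone, at 0.82 against 0.41.

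Genes were also ranked by how far the endoderm cells departed from the rest of the library. Genes higher in this order included, after Pyy and Hotairm1, Ap3b1, Fyn, Hspa14, Erg28, Polr3k and Ccne1. Fyn, a tyrosine kinase, had 31 UMIs in 29 cells and 61 in 51, at 1.05 (0.41 to 1.72) against 0.04. Polr3k, a subunit of RNA polymerase III, had 47 and 85 UMIs, at 0.93 (0.40 to 1.48) against 0.06. The G1 cyclin Ccne1 had 36 and 58 UMIs, at 0.76 (0.14 to 1.41) against −0.18, but at −0.16 with at least 2 UMIs on each side of the rule.

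Lower in this order after Onecut2 were Dqx1, Pafah1b3, Cd47, Mrps10, Aes, Ndufs4, Hbb-bh1, Ndufs7 and Togaram1. Dqx1, a helicase-like gene, had 36 UMIs in 14 WT cells and 14 in 13 KO cells, and 15 of the 36 came from 1 cell. Without the deepest 5% of cells it was at 0.051, from 10 UMIs in each library. Pafah1b3, a subunit of platelet-activating factor acetylhydrolase, had 63 UMIs in 55 cells and 23 in 21, at −1.38 (−2.14 to −0.67) against −0.12, but at 0.020 from 7 and 5 UMIs after thinning. Cd47, the surface signal that restrains phagocytes, had 41 UMIs in 36 cells and 12 in 12, at −1.70 (−2.76 to −0.74) against −0.33. Ndufs7, a subunit of respiratory complex I, had 170 and 98 UMIs, at −0.72 (−1.09 to −0.35) against 0.01. Aes, a Groucho-family corepressor, had 130 and 66, at −0.90 (−1.35 to −0.46) against −0.07. Mrps10 and Ndufs4, both of mitochondria, had 38 and 15 and 70 and 44 UMIs.

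**Figure D5:**
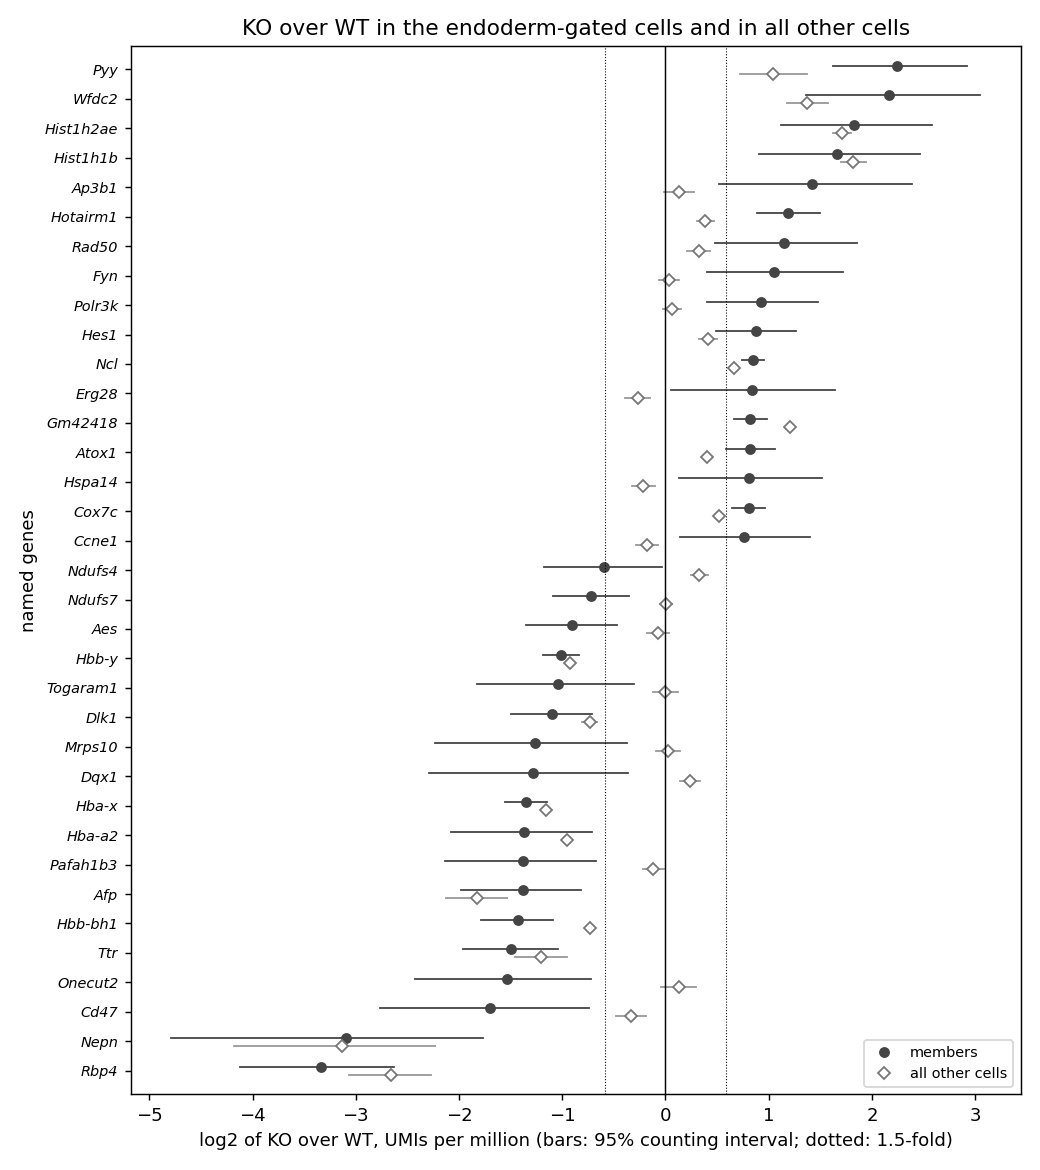
Log2 of KO over WT for the genes named from the ranking, in endoderm cells (members, filled) and in all other cells (open diamonds), with 95% counting intervals and dotted lines at 1.5-fold. Rbp4, Nepn, Ttr and Afp are lower in KO in both sets of cells, Hist1h2ae and Hist1h1b are higher in both, and for Onecut2, Fyn and Polr3k the interval excludes 0 in the endoderm cells and spans it in other cells.

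The targeted gene could not be used as a check in these cells. Prdm6, a PR domain factor, had 1 UMI in the 244 WT cells and 0 in the 196 KO cells, which allows a share of up to 1.53% of KO cells with a UMI and sets no limit on cells that express the gene. In all other cells it had 103 and 59 UMIs. Wnt1 had 2 and 1 UMIs in the endoderm cells, and the reporter has no column in the tables. Xist, the RNA of the inactive X chromosome, was at 220 CPM (183 to 262) in WT and 397 CPM (345 to 454) in KO endoderm cells, and at 158 and 332 CPM in other cells. The part of embryo sex and of the make-up of each pool in the values above was not tested, and with 1 library per genotype it cannot be told apart from the genotype.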

How the data were processed

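Single-cell RNA was measured in 1 WT and 1 KO library made with a 3′ droplet kit. The authors deposited a signal per gene and cell, the square root of UMI counts scaled to a common cell total, with mitochondrial and ribosomal genes absent. Cell Ranger 1.3.1, Scanpy and the build mm10 stand in the submitters' processing notes. UMIs were recovered as the squared value divided by the smallest nonzero square of the cell, and 100% of nonzero values were whole within 0.01. The count models were not run, since the deposited unit is not counts and there is 1 library per genotype. UMIs were summed over the cells of a gate. Levels carry exact Poisson intervals, shares Clopper-Pearson intervals and log2 ratios exact conditional intervals (scipy 1.17.1). A gene was counted past a fold of 1.5 with at least 50 UMIs over both libraries. A count of 0 allows up to 3. No test was made. Doublets were not called here. Per the methods they were removed by the study, and whether before deposit is not said.

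Depth was 20781384 UMIs in WT and 18936857 in KO. The members and gene lists were chosen with earlier results of these data known. Genes were named by rank: 25 leading genes, 12 in each direction of KO over WT by the interval bound nearest 0, 10 in each direction by departure from the rest of the library, and from each list the most abundant genes and those past 1.5-fold with an interval excluding 0. Xist, Tsix, Y-linked genes and the 8 rule genes were left out of these ranks. Genes of a factor group come from its first 10 by the smaller of the WT and KO folds, with 50 CPM added and at least 5 cells with the gene in each library, a rule set after values were seen. Some genes that these rules reach are not reported here. Coordinates are from GENCODE vM21, which held 17917 of 18131 symbols.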

Additional observations from a re-analysis of the deposited data

Results flagged for a closer look

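Some genes pointed in opposite directions in the endoderm cells and in all other cells, with both counting intervals excluding 0. This held for 6 of 200 genes that were named or listed and had 50 UMIs among those reported here, and the difference was not tested, since each genotype had 1 library. Those higher in KO in endoderm cells and lower outside were Hspa14 (difference of the log2 ratios 1.03), Erg28 (1.11) and Ccne1 (0.94). Those lower in endoderm cells and higher outside were Dqx1 (−1.53), Ndufs4 (−0.92) and Smc4, a condensin subunit (−0.48). All but Smc4 had been named for their departure from the rest of the library, so their presence here follows from that choice. The share over all 4400 genes tested was not counted, so the 6 of 200 have no background.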

How the results depend on the processing

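No paired analysis was possible because each genotype had 1 library, and for the same reason no library could be left out. The log2 ratio of the shares was 0.85 with at least 2 UMIs on each side, −0.37 after thinning, −1.46 without cells that had 3 UMIs of other lineages (54 WT and 16 KO cells remained), and −1.19 and −1.70 in the first and second depth classes. Numbers of higher, lower and departing genes were 94, 68 and 71 with 2 UMIs on each side, 41, 29 and 33 after thinning, 53, 59 and 68 without cells with other lineage UMIs, 524, 851 and 922 with a minimum of 20 UMIs, and 23, 13 and 5 with 200. The number of genes that reached the UMI minimum differed between these settings, so the counts compare within a setting only. With 2 UMIs, after thinning and with 200 UMIs the higher genes outnumbered the lower. Under the other settings they stayed within 1.5 times of 162, 281 and 222. The list medians moved as follows. Epithelial genes were at −0.67 without the deepest 5% of cells. Endoderm factors were at −0.059 with 2 UMIs, −0.25 without the deepest cells and −0.11 without the cells with carrier UMIs. Basement membrane genes were at 0.060 and S phase genes at 0.018 without Pax9 and Nkx2-3 in the rule. S phase genes were at −0.19 after thinning, 0.051 without the deepest cells and 0.010 without cells with other lineage UMIs. G2 and mitosis genes were at 0.18 with 2 UMIs, 0.079 without other lineage UMIs and −0.077 without carrier UMIs. Stress genes were at 0.029 and −0.068 with 2 UMIs and without other lineage UMIs, and glycolysis genes at −0.36 after thinning. Among named genes, 4 turned direction in 1 setting each: Pafah1b3 (0.020) and Rad51ap1 (−0.66) after thinning, Ccne1 (−0.16) with 2 UMIs and Dqx1 (0.051) without the deepest cells. Without turning, 15 of the named genes left their counting interval with 2 UMIs on each side, 10 after thinning, 13 without other lineage UMIs, 2 without carrier UMIs and 1 without the deepest cells. The settings that leave out carrier UMIs or divide cells by depth were chosen after the values were seen. The causes were not tested. Median-of-ratios scaling and means over cells moved none of the results. Depth limits genes under 50 UMIs, for which only counts are given.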
